A study of Mus musculus with 10 samples.

Results

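The natriuretic peptide genes of the heart were examined in cardiomyocytes after myocardial infarction (MI). The set held 8 genes, chosen by symbol with earlier results of these data known. They were the peptide genes Nppa, Nppb and Nppc, the receptor genes Npr1, Npr2 and Npr3, and the genes of the peptide-cutting proteases Corin and Furin. All 8 were among the 51789 genes of the count table, and 7 of them were among the 15232 genes that passed the filter on low counts. Bulk RNA-Seq had been performed on cardiomyocytes isolated on day 4 after MI from 5 TgGRK5 mice (TgGRK5-MI), which overexpress G protein-coupled receptor kinase 5 (GRK5) specifically in cardiomyocytes, and from 5 non-transgenic littermate controls (NLC-MI). The study describes a mouse for each library, and the labels themselves give replicate numbers only, so the p-values rest on the spread between these libraries. Both groups had undergone MI by suture of the left coronary artery, so the comparison is of genotypes after MI and not of MI with sham surgery. The study used young adult mice of both sexes, but the age and sex of the mouse behind each library, and the promoter of the transgene, were not given in the sources used here.

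Nppa encodes atrial natriuretic peptide (ANP) and Nppb encodes B-type natriuretic peptide (BNP), hormones made by heart muscle cells that lower blood volume and pressure, and both genes are classical markers of the stressed ventricle. Their precursors are cut by the proteases corin and furin, and the mature peptides bind the guanylyl cyclase receptor encoded by Npr1, which makes cyclic GMP. Nppc encodes C-type natriuretic peptide (CNP), the ligand of the guanylyl cyclase encoded by Npr2, while the clearance receptor encoded by Npr3 removes all these peptides and has no cyclase domain.

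Nppa (ENSMUSG00000041616) lies on chromosome 4 from 148000722 to 148002079 on the plus strand of GRCm38. Nppb (ENSMUSG00000029019) lies upstream of it on the same strand, from 147985788 to 147987205, with 13516 bases and 0 annotated genes between them. The 250 bases before the RefSeq start of each gene (GRCm38.p6, plus strand, Nppa chr4:148000472-148000721 and Nppb chr4:147985650-147985899) are shown because these neighbours were the most abundant genes of the set and had levels across the libraries with a correlation of only 0.15. Capitals mark matches to motifs of factors known to act on cardiac promoters.
Nppa: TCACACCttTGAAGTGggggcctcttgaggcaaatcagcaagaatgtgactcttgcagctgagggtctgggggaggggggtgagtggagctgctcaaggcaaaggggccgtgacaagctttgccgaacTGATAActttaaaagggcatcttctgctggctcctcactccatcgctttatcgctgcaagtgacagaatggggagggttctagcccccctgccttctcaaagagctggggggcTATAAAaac
Nppb: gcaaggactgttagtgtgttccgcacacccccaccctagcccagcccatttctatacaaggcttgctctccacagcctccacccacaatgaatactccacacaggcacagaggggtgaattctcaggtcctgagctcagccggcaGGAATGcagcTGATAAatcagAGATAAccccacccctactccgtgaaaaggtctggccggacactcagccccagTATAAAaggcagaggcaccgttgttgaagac
Both strands were searched for GATA factor sites (AGATAA, also with T as its first or G as its last base), the M-CAT element of TEAD factors (CATTCC), the TATA box (TATAAA), an Nkx2-5 element (TNAAGTG) and a T-box element (TCACACC). The Nppa window held a T-box and an Nkx2-5 match side by side at its far end (positions -250 and -241 from the start), 1 GATA match at -122 and a TATA match at -9. The Nppb window held an M-CAT match at -105, GATA matches at -95 and -84 and a TATA match at -31. None of these matches overlapped another. Of 32851 RefSeq promoter windows of the same length, 26.5% held a GATA match, 12.6% an M-CAT match, 12.4% a TATA match, 10.1% an Nkx2-5 match and 3.33% a T-box match. A match is a run of letters and not a bound site. GENCODE M21 starts Nppb 112 bases upstream of the RefSeq start, so the last 112 bases of the Nppb window lie within the gene in that annotation. All the marked Nppb matches fall in this stretch, so they are upstream of the gene only by the RefSeq start. Promoters of all 8 genes were in the RefSeq table. Among the others, the Nppc window had a TATA match at -29, the upstream one of 2 Furin windows had a TATA match at -23 and an Nkx2-5 match at -206, and the windows of Npr1, Npr2, Npr3 and Corin had no match to any of these motifs.

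Sequencing depth ran from 7968779 counts (NLC-MI replicate 3) to 23381527 counts (NLC-MI replicate 2), with TgGRK5-MI replicates 4 and 3 next lowest at 9114469 and 12833652 counts. A level of 3 counts corresponded to 0.121 to 0.393 CPM (counts scaled to library size with edgeR's TMM factors). Grk5, the gene of the overexpressed kinase, ranged from 46.5 to 73.1 CPM across NLC-MI libraries and from 552 to 1700 CPM across TgGRK5-MI libraries. All 10 libraries had Xist at or below 0.916 CPM and the Y-linked Ddx3y at 63.4 to 92.7 CPM. Summed markers of cardiomyocytes (7 genes) spanned 44216 to 113689 CPM (NLC-MI) and 47248 to 92781 CPM (TgGRK5-MI). The libraries also held RNA of other cell types, since 6 fibroblast markers summed to 2683 to 16212 CPM (NLC-MI) and 2962 to 16115 CPM (TgGRK5-MI), and 5 macrophage markers to 499 to 1672 CPM and 884 to 1878 CPM. The atrial gene Bmp10 had 472 counts in NLC-MI replicate 5 and 126 counts in TgGRK5-MI replicate 1, and at most 1 count in the other 8 libraries. Bmp10 did not mark every library with high atrial markers. In NLC-MI replicate 2, with 0 counts of it, the atrial genes Myl7 and Myl4 were at 54.7 and 69.8 CPM. In bulk RNA, fewer cells of a type and less RNA per cell cannot be told apart.

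TgGRK5-MI was compared to NLC-MI to ask whether GRK5 overexpression altered the natriuretic peptide genes of infarcted hearts. With edgeR's quasi-likelihood test and Benjamini-Hochberg adjustment over all genes tested, 0 of the 7 tested members had an adjusted p under 0.10, a threshold that 0.0788% of all tested genes passed. The count was also 0 with DESeq2, where 0.243% of genes passed, and with limma-voom, where 0.328% passed. At an unadjusted p under 0.05 in edgeR, 1 of the 7 members (Furin) was lower in TgGRK5-MI and 0 were higher, against 3.85% of all tested genes in either direction and 2.08% lower in TgGRK5-MI. The groups overlapped in CPM for every member, whereas 1% of all tested genes had groups that did not overlap. The median effect over all tested genes was 0 on the log2 scale in edgeR. The difference for each gene is drawn in the plot of fold changes with their intervals.

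**Figure D1:**
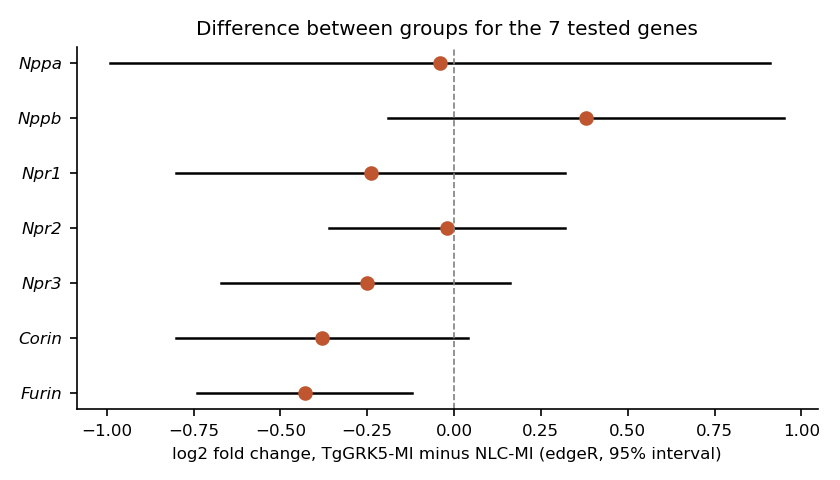
Difference between groups for the 7 tested genes, as log2 fold change of TgGRK5-MI over NLC-MI (points) with 95% intervals from edgeR (lines). The interval of Furin, from -0.74 to -0.12, is the only one that leaves out 0, and that of Nppa, from -0.99 to 0.91, is the widest.

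Among the ligands, Nppa was abundant and uneven. In NLC-MI it was at 2990, 3634, 1504, 2826 and 1020 CPM in replicates 1 to 5, and in TgGRK5-MI at 2528, 3340.0, 968, 1398 and 3414 CPM. In each group 3 libraries were at or above 2528 CPM and 2 were at or below 1504 CPM, so the groups covered the same range. The mean was 2395 ± 1091 CPM for NLC-MI (SD, n = 5) and 2330 ± 1113 CPM for TgGRK5-MI (SD, n = 5), a log2 fold change of -0.04 (standard error 0.44, 95% interval -0.99 to 0.91, edgeR adjusted p = 1). The two-sided exact permutation test of the group means of log2 CPM gave p = 0.873. Differences within the 95% interval were compatible with the values of these libraries. The coefficient of variation of Nppa was 45.5% in NLC-MI and 47.8% in TgGRK5-MI, at the 80.5th and 87.7th percentile of the tested genes, and the highest library was 3.75 times the lowest. The direction of the difference was not stable. Without NLC-MI replicate 2 the log2 fold change was 0.16, and without NLC-MI replicate 5 it was -0.24.

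Nppb, the BNP gene, was at 682, 596, 857, 1015 and 460 CPM in NLC-MI replicates 1 to 5. In TgGRK5-MI it was at 819, 662, 988, 856 and 1375 CPM. The highest library was TgGRK5-MI replicate 5 and the lowest NLC-MI replicate 5, and 4 of 5 TgGRK5-MI libraries lay above the NLC-MI mean. The means were 722 ± 218 CPM (SD, n = 5) and 940.1 ± 269 CPM (SD, n = 5). The log2 fold change of 0.38 (standard error 0.26, 95% interval -0.19 to 0.95) did not exceed the spread between libraries (edgeR p = 0.171, adjusted p = 1, two-sided exact permutation p = 0.206). Leaving out each library in turn gave log2 fold changes from 0.2 (without TgGRK5-MI replicate 5) to 0.54 (without NLC-MI replicate 4), all above 0. With a covariate built from Xist and Y-linked genes it was 0.72 (unadjusted p of 0.0166 and adjusted p = 0.972 in edgeR's fit, not from an exact test). All 10 libraries had the low Xist and high Ddx3y of male tissue, so this covariate did not set female against male libraries.

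Nppc, the CNP gene (ENSMUSG00000026241, chromosome 1 from 86666291 to 86670571, minus strand), was close to absent from the reads. NLC-MI replicates 1 to 5 had 2, 6, 0, 1 and 2 counts, and TgGRK5-MI replicates 1 to 5 had 4, 3, 1, 0 and 0 counts. These values lay under the filter and were not tested. In the 3 libraries with 0 counts the depth still allowed levels up to 0.393 CPM (NLC-MI replicate 3), 0.323 CPM (TgGRK5-MI replicate 4) and 0.161 CPM (TgGRK5-MI replicate 5), counting error only.

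**Figure D2:**
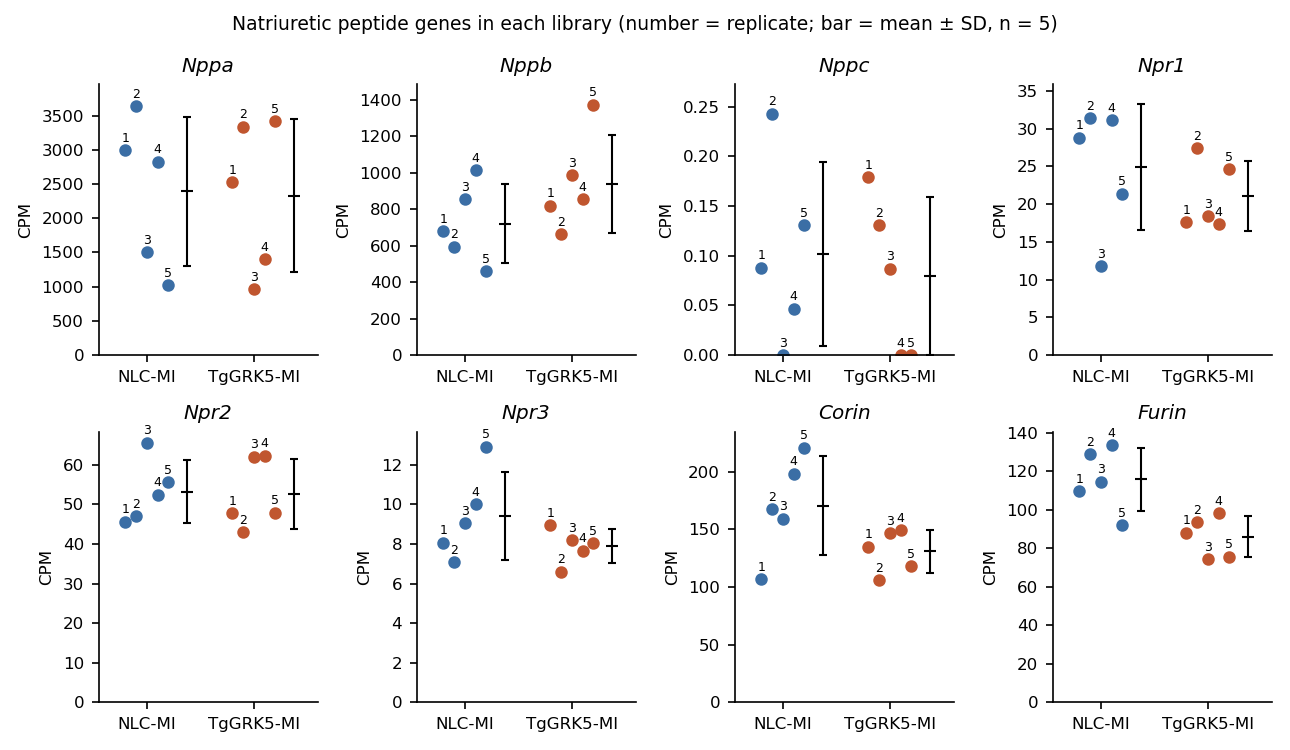
CPM of the 8 natriuretic peptide genes in each library, with NLC-MI in blue and TgGRK5-MI in orange, the replicate number beside each point and the group mean ± SD (n = 5) in black. Nppa spans 968 to 3634 CPM with both groups over the whole range, whereas for Furin only NLC-MI replicate 5 (91.9 CPM) falls within the TgGRK5-MI range of 74.4 to 98.3 CPM.

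The receptor genes were at far lower CPM than the peptide genes Nppa and Nppb, and no receptor gene passed either threshold in edgeR. Npr1 (ENSMUSG00000027931, chromosome 3 from 90450591 to 90465866, minus strand), the cyclase receptor of ANP and BNP, was at 28.8, 31.4, 11.8, 31.1 and 21.4 CPM in replicates 1 to 5 of NLC-MI and 17.6, 27.4, 18.4, 17.3 and 24.6 CPM in those of TgGRK5-MI. NLC-MI replicate 3 was the lowest of all 10 libraries, while 3 NLC-MI libraries were above every TgGRK5-MI library. The log2 fold change was -0.24 (standard error 0.26, edgeR p = 0.362, adjusted p = 1, two-sided exact permutation p = 0.595). It reached an unadjusted p of 0.0391 with limma-voom, which gives lower weight to variable libraries (log2 fold change -0.44, adjusted p = 0.394). Other settings moved it towards 0, to -0.09 with 1 surrogate variable, -0.11 with library size as a covariate and -0.14 with atrial markers as a covariate, and without NLC-MI replicate 3 it was -0.42.

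Npr2 (ENSMUSG00000028469, chromosome 4 from 43631935 to 43651244, plus strand), the CNP receptor, was among the steadiest members. It was at 45.6, 47.0, 65.6, 52.4 and 55.6 CPM in the NLC-MI libraries and 47.8, 42.9, 62.0, 62.3 and 47.9 CPM in the TgGRK5-MI libraries, in replicate order. The 3 libraries with the fewest counts, NLC-MI replicate 3 and TgGRK5-MI replicates 3 and 4, were the 3 highest. The group means were 53.2 ± 7.99 CPM and 52.6 ± 8.95 CPM (SD, n = 5), with a log2 fold change of -0.02 (95% interval -0.36 to 0.32, edgeR adjusted p = 1). This interval is narrower than those of Npr1 and Npr3.

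Npr3 (ENSMUSG00000022206, chromosome 15 from 11839896 to 11907287, minus strand), the clearance receptor gene, was the lowest of the tested members. It was at 8.06, 7.08, 9.03, 9.99 and 12.9 CPM in the NLC-MI libraries and 8.95, 6.59, 8.17, 7.65 and 8.05 CPM in the TgGRK5-MI libraries. The highest value belonged to NLC-MI replicate 5, and all 5 TgGRK5-MI libraries were below the NLC-MI mean of 9.41 ± 2.23 CPM (SD, n = 5). The log2 fold change was -0.25 (standard error 0.19, edgeR p = 0.204, adjusted p = 1, two-sided exact permutation p = 0.198). Npr3 is also a marker of the endocardium. The list for the endocardium held 5 genes including Npr3, and Gpr126 had no match by symbol. Of the 3 others, Cytl1 (0.972 to 4.06 CPM) and Tmem108 (2.42 to 4.56 CPM) were low in all libraries. Vwf, which blood vessel endothelium also expresses, was at 36.5 to 87.1 CPM. The part of endocardial RNA in the Npr3 level was not tested.

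The genes of both proteases had lower means in TgGRK5-MI. Furin (ENSMUSG00000030530, chromosome 7 from 80388585 to 80405436, minus strand), a proprotein convertase of the Golgi that cuts proBNP and many other precursors, was at 110, 129, 114, 133 and 91.9 CPM in NLC-MI. In TgGRK5-MI it was at 88.1, 93.6, 74.4, 98.3 and 75.7 CPM. The groups overlapped through NLC-MI replicate 5 alone, which lay below TgGRK5-MI replicates 2 and 4. The means were 116 ± 16.5 CPM and 86.0 ± 10.7 CPM (SD, n = 5), a log2 fold change of -0.43 (standard error 0.14, 95% interval -0.74 to -0.12). The unadjusted edgeR p was 0.0115, rank 174 among the tested genes, and the adjusted p was 1, while the two-sided exact permutation test gave p = 0.0238. The direction held when each library was left out in turn (log2 fold change -0.51 to -0.37, unadjusted p from 0.00338 to 0.0321). It was -0.44 in the 7 libraries with the most counts and -0.52 in the 8 libraries with at most 1 Bmp10 count. With cardiomyocyte or fibroblast markers as a covariate it was -0.45 and -0.44. Over all 26 alternatives the adjusted p of Furin ranged from 0.177 to 1, so the difference did not pass the correction for the number of genes under any of them.

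Corin (ENSMUSG00000005220, chromosome 5 from 72300025 to 72504473, minus strand), the membrane protease of cardiomyocytes that activates proANP, was at 107, 168, 159, 198 and 221 CPM in NLC-MI. In TgGRK5-MI it was at 135, 106, 146, 149 and 118 CPM. NLC-MI replicate 1 was in the range of TgGRK5-MI, and the other 4 NLC-MI libraries were above every TgGRK5-MI library. The means were 171 ± 43.2 CPM and 131 ± 18.6 CPM (SD, n = 5), and the log2 fold change was -0.38 (standard error 0.19, 95% interval -0.8 to 0.04, edgeR p = 0.0701, adjusted p = 1, two-sided exact permutation p = 0.119). Without NLC-MI replicate 1 it was -0.53 with an unadjusted p of 0.00865 (adjusted p = 0.73), and without NLC-MI replicate 5 it was -0.28 with an unadjusted p of 0.16, both from edgeR's fit and not from the exact test.

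Levels of different genes were compared per kilobase of exon. Nppa ranked 7th and Nppb 27th among all tested genes, at 2769 ± 1261 and 924 ± 279.6 CPM per kilobase for NLC-MI and 2693 ± 1287 and 1204 ± 345 CPM per kilobase for TgGRK5-MI (SD, n = 5). Corin followed at 31.6 ± 8.01 and 24.3 ± 3.45 CPM per kilobase, then Furin at 12.6 ± 1.80 and 9.37 ± 1.16, Npr2 at 11.4 ± 1.71 and 11.3 ± 1.92, Npr1 at 5.20 ± 1.75 and 4.41 ± 0.965 and Npr3 at 1.00 ± 0.237 and 0.839 ± 0.0918. Nppb was above Corin, Corin above Npr2, Furin above Npr1 and Npr1 above Npr3 in all 10 libraries. Npr2 and Furin could not be ordered, since Npr2 was higher in 6 of 10 libraries. Nppa exceeded Nppb in 9 of 10 libraries.

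The exception in that order was TgGRK5-MI replicate 3. As a share of Nppa CPM, Nppb was at 22.8%, 16.4%, 57.0%, 35.9% and 45% in NLC-MI and 32.4%, 19.8%, 102%, 61.2% and 40.3% in TgGRK5-MI. This share of CPM, not scaled for exon length, thus spanned 16.4% to 102%, with the high values in libraries where Nppa was low. Per kilobase of exon, the ratio of Nppa to Nppb ran from 0.885 to 5.5. The log2 ratio of Nppb to Nppa was -1.64 ± 0.73 in NLC-MI and -1.19 ± 0.9 in TgGRK5-MI (SD, n = 5), a difference of 0.45 (two-sided exact permutation p = 0.429). It was 0.14 without TgGRK5-MI replicate 3 and 0.73 without TgGRK5-MI replicate 2. The ratio of the clearance receptor to the cyclase receptor, Npr3 to Npr1, differed by -0.05 on the log2 scale (two-sided exact permutation p = 0.897), and the ratio of Corin to its substrate Nppa by -0.3 (two-sided exact permutation p = 0.667). With 5 libraries a group this test cannot give a p below 0.00794.

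No correlation of the neighbours Nppa and Nppb was detected. Across the 10 libraries their log2 CPM had Pearson's r = 0.15 (permutation p = 0.67) and Spearman's rho = -0.07 (permutation p = 0.864). The r was 0.19 with group means removed, -0.11 without the 2 libraries farthest from the median of Nppa, and 0.35 with CPM scaled by library size alone. Of the 21 pairs of tested members, 0 had an adjusted permutation p under 0.05 for r, and the smallest was 0.0952. That value belonged to Npr1 with Npr2 (r = -0.76, rho = -0.71, r = -0.61 without the 2 farthest libraries), to Npr3 with Corin (r = 0.73, rho = 0.6, r = 0.26 without them) and to Nppa with Npr2 (r = -0.84, rho = -0.73, r = -0.92 without them). Within the 6 libraries with 2528 CPM or more of Nppa, a choice that narrows its range, r was -0.14 for Nppa with Nppb, -0.39 for Nppa with Npr2, 0.05 for Npr1 with Npr2 and 0.54 for Npr3 with Corin.

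**Figure D3:**
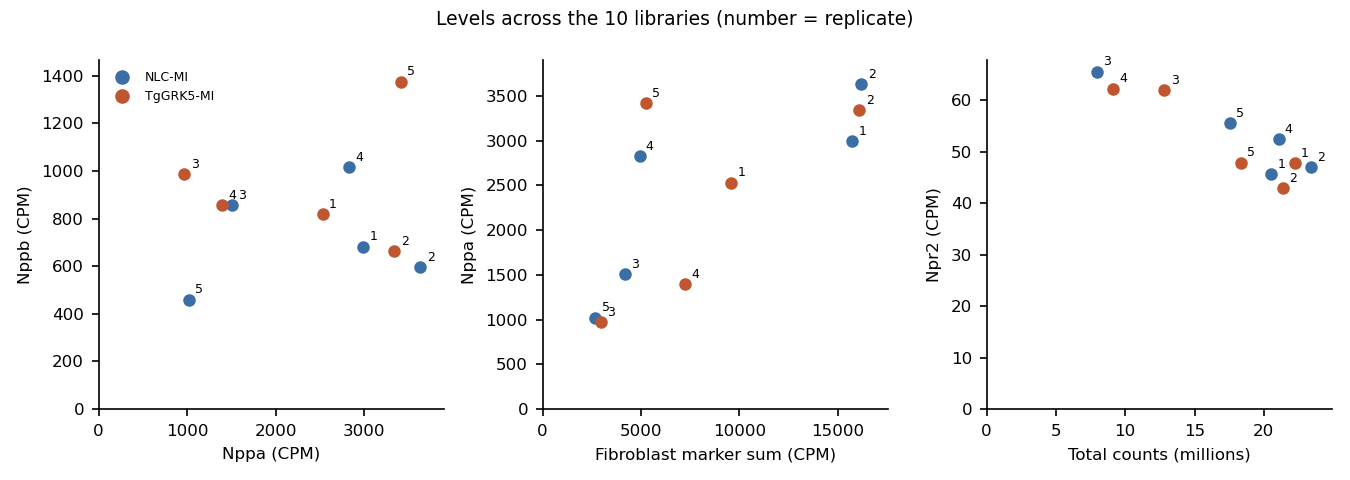
Nppb against Nppa, Nppa against the summed fibroblast markers and Npr2 against total counts in the 10 libraries, on linear axes, with NLC-MI in blue and TgGRK5-MI in orange. Nppb and Nppa have r = 0.15, and Npr2 is highest in the 3 libraries with the fewest counts.

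The members differed in how they moved with other features of the libraries. Each was set against total counts and against the summed CPM of cardiomyocyte, fibroblast, macrophage, endothelial, smooth muscle and atrial markers on the log2 scale, giving 49 correlations over 10 libraries. Of these, 9 had an adjusted permutation p under 0.05 by Pearson's r, 1 of them for Nppa with cardiomyocyte markers, and 0 by Spearman's rho (smallest adjusted p 0.0782). Npr2 ran against total counts and Npr1 with them, at r = -0.89 (rho = -0.84, adjusted permutation p = 0.0115 for r and 0.0782 for rho) and r = 0.82 (rho = 0.71, adjusted permutation p = 0.0423 and 0.117). Without the 2 libraries farthest from the median depth, r was -0.82 and 0.56, and with group means removed it was -0.9 and 0.83. Corin, a gene of cardiomyocytes, followed the cardiomyocyte markers (r = 0.77, rho = 0.66, adjusted permutation p = 0.0485 and 0.143, r = 0.5 without the 2 farthest libraries) and ran against the macrophage markers (r = -0.81, rho = -0.81, adjusted permutation p = 0.0483 and 0.0782, r = -0.86 without the 2 farthest). Npr3 ran against smooth muscle markers (r = -0.88, rho = -0.78, adjusted permutation p = 0.0115 and 0.0782, r = -0.67 without the 2 farthest). Nppb and Furin had no adjusted p under 0.05 with any of these features. Shares of one library trade off against each other, and the part of depth and of cell mixture in these levels was not tested beyond the covariate fits.

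Nppa ran with fibroblast markers (r = 0.77, rho = 0.77, adjusted permutation p = 0.0635 and 0.0782, r = 0.67 without the 2 farthest libraries) and against cardiomyocyte markers (r = -0.77, rho = -0.7, adjusted permutation p = 0.0483 and 0.117, r = -0.7 without the 2 farthest). With macrophage markers it had r = 0.7 (rho = 0.7) and with total counts r = 0.67 (rho = 0.68), both with an adjusted permutation p of 0.0996 for r, and without the 2 farthest libraries r was 0.67 and 0.81. The fibroblast marker sums were 15745, 16212, 4198, 4928 and 2683 CPM in NLC-MI replicates 1 to 5, and 9604, 16115, 2962, 7230.0 and 5258 CPM in TgGRK5-MI replicates 1 to 5. NLC-MI replicate 5 and TgGRK5-MI replicate 3 had the lowest sums and the lowest Nppa, and NLC-MI replicate 2 had the highest of both, but TgGRK5-MI replicate 5 combined a sum of 5258 CPM with 3414 CPM of Nppa. Since Nppa has a gap between 1504 and 2528 CPM, r was also taken within the 6 libraries above it, a choice that narrows the range of Nppa. There it was 0.28 with fibroblast, -0.44 with cardiomyocyte, 0.59 with macrophage, 0.57 with endothelial, 0.4 with smooth muscle and 0.5 with atrial markers, and -0.1 with total counts. NLC-MI replicate 5, where Bmp10 and the atrial marker sum (235 CPM) were highest, had 1020 CPM of Nppa. NLC-MI replicate 2, with 0 counts of Bmp10, had the next highest atrial sum (212 CPM) and the highest Nppa (3634 CPM). Over the 10 libraries the r of Nppa with atrial markers was 0.23 (rho = 0.41, adjusted permutation p = 0.719 and 0.466), and 0.74 without the 2 farthest libraries. The genes of the atrial sum did not all peak in the same libraries. Dkk3 was at 33.4 to 43.2 CPM in replicates 1 and 2 of both groups, which had the highest fibroblast sums. Elsewhere Dkk3 was at most at 17.1 CPM. Nr2f2 was highest in TgGRK5-MI replicate 4, at 34.4 CPM, where Myl7 was at 3.66 CPM. Myl7 and Myl4 were highest in NLC-MI replicate 5, at 64 and 79.4 CPM. The part of atrial RNA in this sum and in its covariate fit was not tested. Summed atrial markers were 81.4 to 235 CPM (NLC-MI) and 73.5 to 132 CPM (TgGRK5-MI; two-sided exact permutation p = 0.214).

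**Figure D4:**
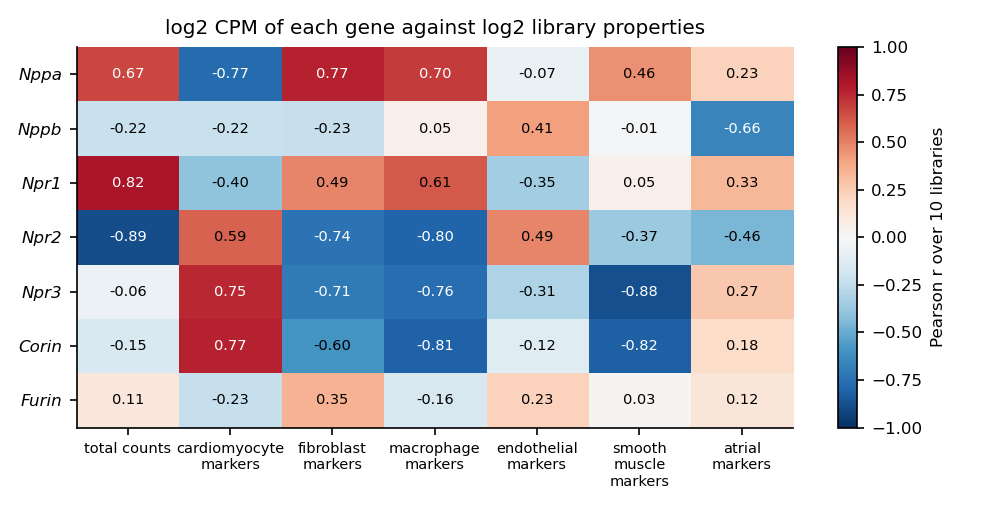
Pearson's r over 10 libraries between the log2 CPM of the 7 tested members (rows) and log2 total counts or log2 summed marker CPM (columns), in red for positive and blue for negative values. Npr1 and Npr2 have opposite signs with total counts (0.82 and -0.89), and Corin and Npr3 are both positive with cardiomyocyte markers (0.77 and 0.75) and negative with macrophage and smooth muscle markers.

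The genes with the pattern most like each member were found by Pearson's r of log2 CPM over the 10 libraries, as a description. For Nppa they were Glb1l (r = 0.973), Sytl4 (0.972), Slc25a30 (0.971), Kif3b (0.971) and 4933407K13Rik (0.967). For Nppb they were Nmrk2 (r = 0.943), a nicotinamide riboside kinase gene of muscle, then Mal (0.921), Gm15287 (0.91), Aspscr1 (0.905) and Gtf2f2 (0.904). Npr1 was closest to Spout1, Slc7a6os and Gm42688 (r = 0.968 to 0.959), Npr2 to Vamp2, Wbp11 and Kmt5a (0.981 to 0.974) and Npr3 to Smim13, Gm26905 and Clcn3 (0.965 to 0.955). Corin was closest to Armh3 (r = 0.954), Cacna1c (0.944), which encodes the pore of the L-type calcium channel, and Vps53 (0.943), and Furin to Kdm2b (r = 0.941), Zfp865 (0.909) and Adnp2 (0.907). No member was among the closest genes of another. Several of these genes also moved with depth. Their r with log2 total counts was 0.87 to 0.9 for those of Npr1 and -0.91 to -0.8 for those of Npr2. It was 0.58 to 0.8 for those of Nppa, and between -0.44 and 0.29 for those of the other members. The part of depth in these patterns was not tested.

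Genes that act around the peptides were taken from 5 lists, also chosen with earlier results of these data known. Of 61 listed genes, 57 were tested, 0 had an edgeR adjusted p under 0.10, and 4 had an unadjusted p under 0.05, all lower in TgGRK5-MI, which is 7.02% against 3.85% of all tested genes. The 4 were Pde3a, Rgs2, Tbx20 and Hspb1. The median log2 fold change of the 57 genes was -0.16, with 17 above and 40 below 0, against a median of 0 over all genes. The count of 4 went to 9 under some settings and to 2 without TgGRK5-MI replicate 4. The count over all tested genes changed with the setting too.

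In cyclic GMP signaling, downstream of the receptors, 19 of 20 genes were tested, 2 had an unadjusted p under 0.05 and the median was -0.11. Pde3a, a phosphodiesterase that cyclic GMP inhibits, was at 72.5 ± 16.9 (NLC-MI) and 46.1 ± 7.29 (TgGRK5-MI) CPM (SD, n = 5), a log2 fold change of -0.65 (edgeR p = 0.00311, adjusted p = 0.632, two-sided exact permutation p = 0.0238). Rgs2, a regulator of G protein signaling that the cyclic GMP-dependent kinase activates, was at 37.5 ± 14.3 and 25.3 ± 4.62 CPM (log2 fold change -0.57, edgeR p = 0.0428, adjusted p = 1, two-sided exact permutation p = 0.111). The list's most abundant genes, Pde1c (79.0 and 107 CPM, log2 fold change 0.44) and Vasp (73.3 and 63.4 CPM, -0.21), had unadjusted p of 0.0869 and 0.482. The kinase gene Prkg1 and the phosphodiesterase gene Pde5a, named for their place in the pathway after their values were seen, were at -0.25 and 0.02 on the log2 scale, neither with an unadjusted p under 0.05.

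All 16 listed transcription factors that act on Nppa and Nppb were tested, and all 16 had log2 fold changes below 0, where 49.8% of all tested genes did. The median was -0.23, and Tbx20 was the only one with an unadjusted p under 0.05. Tbx20, a T-box factor of the heart, was at 129 ± 20.0 (NLC-MI) and 88.8 ± 19.9 (TgGRK5-MI) CPM (SD, n = 5), a log2 fold change of -0.54 (edgeR p = 0.0108, adjusted p = 0.995, two-sided exact permutation p = 0.0159). The most abundant were Mef2a (195 and 174 CPM, log2 fold change -0.17) and Tead1 (192 and 186 CPM, -0.05), with unadjusted p of 0.453 and 0.871. The number below 0 was 13 without NLC-MI replicate 3 and 14 with limma-voom or the Xist and Y-linked covariate, and it stayed between 15 and 16 under the other alternatives. These genes can vary together across libraries, so the count is not 16 separate observations. The list was also not sorted by whether a factor raises or lowers Nppa and Nppb.

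**Figure D5:**
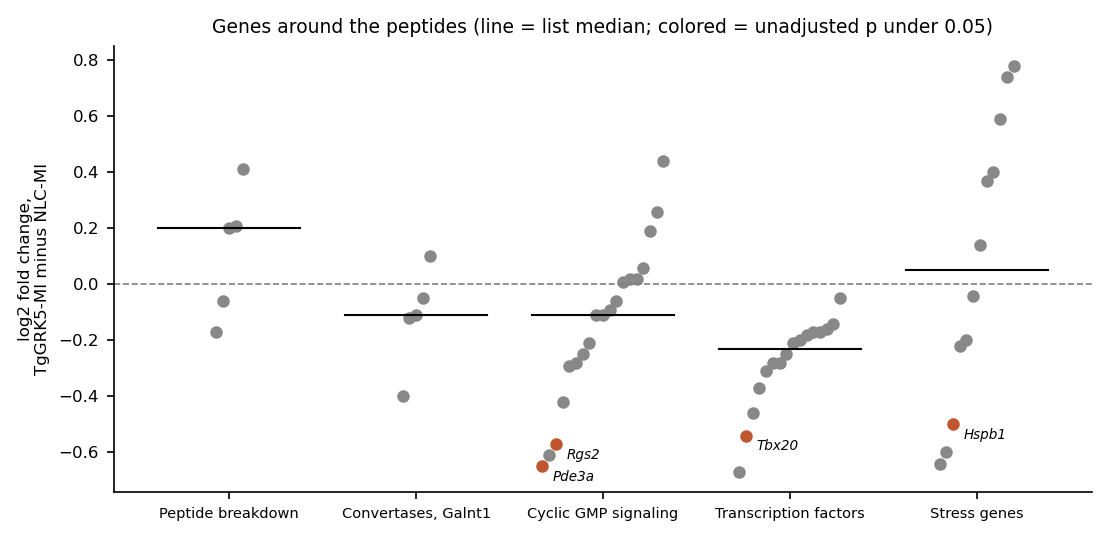
log2 fold change of TgGRK5-MI over NLC-MI for the 57 tested genes of 5 lists (points), with the median of each list (line) and genes with an unadjusted edgeR p under 0.05 in orange. All 16 transcription factors lie below 0, with a median of -0.23, while the stress genes spread to both sides of 0, with a median of 0.05.

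The other enzymes of the pathway gave no call. Of the genes for peptide breakdown, 5 of 6 were tested, 0 had an unadjusted p under 0.05 and the median was 0.2. The most abundant were Ide, insulin-degrading enzyme (215 and 206 CPM, log2 fold change -0.06), and Ece1, endothelin-converting enzyme (114 and 101 CPM, -0.17). Mme, which encodes neprilysin, was low at 5.72 ± 1.39 and 6.58 ± 2.59 CPM (SD, n = 5), a log2 fold change of 0.21, and is named after its values were seen. Of the other convertases and Galnt1, 5 of 7 were tested and 0 had an unadjusted p under 0.05. Galnt1, an enzyme that starts O-glycosylation and is known to act on proBNP, was at 140 ± 3.63 and 149 ± 10.5 CPM (SD, n = 5), a log2 fold change of 0.1 (edgeR p = 0.39, adjusted p = 1, two-sided exact permutation p = 0.0397). Pcsk6, the convertase that activates corin, was at 32.3 ± 14.3 and 29.7 ± 9.48 CPM, a log2 fold change of -0.12 (edgeR adjusted p = 1).

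Of the 12 stress genes of cardiomyocytes, 6 had log2 fold changes above 0 and 6 below. They ran from -0.64 for Tnni1, which was at most at 27 counts, to 0.78 for Gdf15, both named after their values were seen. Neither had an unadjusted p under 0.05. Hspb1, a small heat shock protein gene, was at 528 ± 123 (NLC-MI) and 373 ± 81.4 (TgGRK5-MI) CPM (SD, n = 5), a log2 fold change of -0.5 (edgeR p = 0.0334, adjusted p = 1, two-sided exact permutation p = 0.0476). The most abundant were Des (5041 and 4903 CPM, log2 fold change -0.04) and Ankrd1 (4846 and 6282 CPM, 0.37), with unadjusted p of 0.897 and 0.342. Myh7, the fetal myosin gene often read together with Nppa and Nppb and named after its values were seen, was at 654 ± 421 and 1094 ± 97.0 CPM (log2 fold change 0.74, edgeR p = 0.0728, adjusted p = 1, two-sided exact permutation p = 0.0476).

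Antisense genes share exon bases with 5 of the members in the count table, and whether counting used the strand is not given in the sources used here. The library kit does not mark the strand, so reads of such pairs cannot be told apart. Gm13054 overlaps 532 of the 865 exon bases of Nppa, and it had 0 to 13 counts per library, at most 0.113% of the counts of the pair. The antisense partners of Npr1, Npr2, Corin and Furin had at most 2 counts in any library. Gm5144 shares 321 exon bases with Npr3 and was not analysed here.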

How the data were processed

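Cardiomyocyte RNA of 5 NLC-MI and 5 TgGRK5-MI mice was measured in 10 libraries made with an Illumina TruSeq kit. The authors deposited whole-number counts per Ensembl gene without normalization. The submitters' processing notes name Bowtie2, RSEM 1.2.31, DESeq2 and build mm10 (GRCm38), with no role or order. The strand setting and the annotation are not given in the sources used here. Symbols, positions and exon lengths came from GENCODE M21, which held 51596 of the 51789 identifiers, and promoter sequences from RefSeq.

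In R 4.3.3 with edgeR 4.0.16, counts were normalized with TMM, filtered with filterByExpr by group, and tested by quasi-likelihood F tests with p-values adjusted by Benjamini-Hochberg over 15232 genes. Thresholds were 0.10 (adjusted) and 0.05 (unadjusted). TMM factors enter the CPM values, and log2 CPM has a prior count of 2. Single values and ratios were tested with the two-sided exact permutation test, and correlations with 100000 permutations, so that a p is an estimate. The alternatives were RLE factors, library size alone, DESeq2 1.42.0, limma-voom (limma 3.58.1) with sample quality weights, the robust fit, no filter, a filter requiring 10 counts in all libraries, 1 surrogate variable (sva 3.50.0), an Xist and Y-linked covariate, the replicate number as a block, and each library left out. Fits with library size or summed markers as a covariate, the 8 libraries with at most 1 Bmp10 count and the 7 deepest libraries were added after seeing the data. The script was tested on simulated data. Named were all members, list genes with an unadjusted p under 0.05 and the 2 most abundant of each list, and the genes most like each member. The members and lists were chosen with earlier results of these data known.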

Additional observations from a re-analysis of the deposited data

How the results depend on the processing

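In all 26 alternatives, 0 members passed an adjusted p of 0.10. The members with an unadjusted p under 0.05 went from 1 to 2 with library size alone, limma-voom, 1 surrogate variable, the Xist and Y-linked covariate or the fibroblast covariate, and were 1 to 2 on leaving out a library. The second was Corin with library size alone, 1 surrogate variable, the fibroblast covariate or NLC-MI replicate 1 left out, Npr1 with limma-voom and Nppb with the Xist and Y-linked covariate. The list genes went from 4 to 9 with limma-voom, 1 surrogate variable or the atrial covariate, 8 with the library size covariate, 7 with the 7 deepest libraries or the cardiomyocyte covariate, and 2 to 7 on leaving out a library. Over all genes, 586 of 15232 had an unadjusted p under 0.05 in the main fit. The count was 1810 with limma-voom, 1032 with 1 surrogate variable, 552 with the atrial covariate and 947 with the library size covariate. It was 1035 with the cardiomyocyte covariate, 999 with the fibroblast covariate, 624 with library size alone and 707 with the Xist and Y-linked covariate. It was 511 of 15683 in the 7 deepest libraries and 457 to 1069 on leaving out a library. Nppa turned to 0.02 with 1 surrogate variable, 0.01 with the library size covariate, 0.24 in the 7 deepest libraries and 0.17 with the atrial covariate, and ran from -0.24 to 0.16 on leaving out a library. Npr2 turned to 0.01 with limma-voom or the cardiomyocyte covariate, 0.06 with the Xist and Y-linked covariate and 0.02 without the 2 libraries holding Bmp10, and ran from -0.09 to 0.07 on leaving out a library. Npr3 was 0.01 with limma-voom. The Npr3 to Npr1 ratio ran from -0.25 to 0.19, the Corin to Nppa ratio from -0.62 to 0.08 and the Nppb to Nppa ratio from 0.14 to 0.73 on leaving out a library, and the correlation of Nppa with Nppb was -0.11 without the 2 farthest libraries and 0.35 with library size alone. The cause of these changes was not tested. Nppb, Npr1, Corin and Furin kept their direction in all 26. Over all genes, edgeR called 12, against 69 with DESeq2, 50 with limma-voom, 4 to 28 in the other fits and 3 to 10 on leaving out a library.

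Replicate numbers name different mice, and the labels give no pairing, so the main fit did not take the numbers as pairs. Same-numbered libraries had correlations of 0.0717, 0.662, 0.381, -0.341 and 0.0848, of which 2 of 5 were over 0.1. Their mean was 0.172, against -0.0274 for libraries of other numbers. These values do not settle whether libraries of 1 number shared a batch. With the replicate block, 0 members passed the adjusted threshold, 1 had an unadjusted p under 0.05, and Furin was at -0.42. Depth limits Nppc most, which had at most 6 counts.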
